A study of Mus musculus with 12 samples.

Results

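The genes described here are 31 genes of cholesterol synthesis, sterol sensing, intracellular sterol transport and storage, and cholesterol export, among 39171 genes in the deposited count table. They were taken by name: 30 by the symbol in the table, and Msmo1 by its gene identifier, because the table lists it under an older symbol. By role, 18 are enzymes of synthesis, and 5 encode the SREBP factors or the proteins that hold or carry them according to sterol levels. Another 4 act in transport and storage, and 4 in export and its control by the LXR receptors. All 31 passed the filter on low counts that left 15589 genes. RNA was sequenced from whole kidneys of 12 male mice no older than 3 months, with 1 library per mouse and 4 mice in each of 3 groups. The first group was wild-type. The second and the third carried the same genotype, a knock-in homozygous for the M743T change in GNE, and differed in the phenotype label, which was healthy for one and sick for the other. The labels name no litter, no cage and no day of collection, and they do not say how the sick mice were recognised. GNE is the enzyme that starts sialic acid synthesis, and 3 comparisons follow from the design: sick against wild-type, sick against healthy knock-in, and healthy knock-in against wild-type.

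Cells make cholesterol from acetyl-CoA through mevalonate, the isoprenoid diphosphates, squalene and lanosterol, and take up the rest from lipoproteins. When sterols are low in the endoplasmic reticulum, SCAP carries the SREBP precursors to the Golgi for cleavage, and the released factors switch on most genes of the pathway. When sterols are high, INSIG proteins hold SCAP back, and oxysterols activate the LXR receptors, which switch on the exporters. In the kidney the tubule cells both make cholesterol and take up lipid-carrying proteins from the filtrate.

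Levels are counts per 1000000 (CPM) on library sizes scaled by the trimmed mean of M values (TMM), and every adjusted p comes from edgeR's quasi-likelihood test over all 15589 genes with a threshold of 0.05. A gene is said to have risen or fallen only past that threshold. The libraries held 10605546 to 22633684 counts. Gne itself read 37.7, 39.5, 37 and 43 CPM in wild-type, 39.9, 32.8, 36.2 and 76.9 CPM in healthy and 25.5, 27.3, 30.2 and 25.5 CPM in sick knock-in mice, and since the change is a substitution its RNA level does not check the genotype. The second wild-type library was the highest of its group for 40.1% and the lowest for 35.8% of all genes. Among the 31 genes it was the highest in 15, with a median exon length of 3.35 kb, and the lowest in 10, with a median of 7.24 kb. Results that change without a library are given with that library beside them. TMM factors were 1.23 to 1.39 in sick mice and 0.804 to 0.933 in the others, and scaling by library totals alone moved the median of all genes in sick against wild-type mice from 0.02 to 0.61 on the log2 scale and the share of higher genes among those called from 50.8% to 84%. Fold changes below are therefore relative to the bulk of the genes.

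In sick kidneys 8 of the 18 synthesis genes fell against wild-type mice and 1, Fdft1, rose. This is 44.4% lower, where 25% of all genes tested fell, and 5.56% higher, where 25.9% rose. The 8 that fell were Hmgcs1, Acat2, Mvd, Idi1, Cyp51, Nsdhl, Ebp and Dhcr7, and for each of them all 4 sick mice were below all 4 wild-type mice, as they were for 20.6% of all genes. All 8 stayed below 0 under each scaling tried, though Acat2 and Dhcr7 were no longer called with library totals alone. Against healthy knock-in mice 9 of 18 fell, the same 8 and Hsd17b7, and Fdft1 rose, where 21.9% of all genes fell and 24.5% rose. With library totals alone Acat2, Hsd17b7, Ebp and Dhcr7 were not called against healthy mice. Groups did not overlap for those 9, nor for 23.2% of all genes in that direction. The median log2 fold change of the 18 was -0.38 against wild-type and -0.48 against healthy mice, beside 0.02 and 0.05 for all genes. Both comparisons use the same 4 sick mice.

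**Figure D1:**
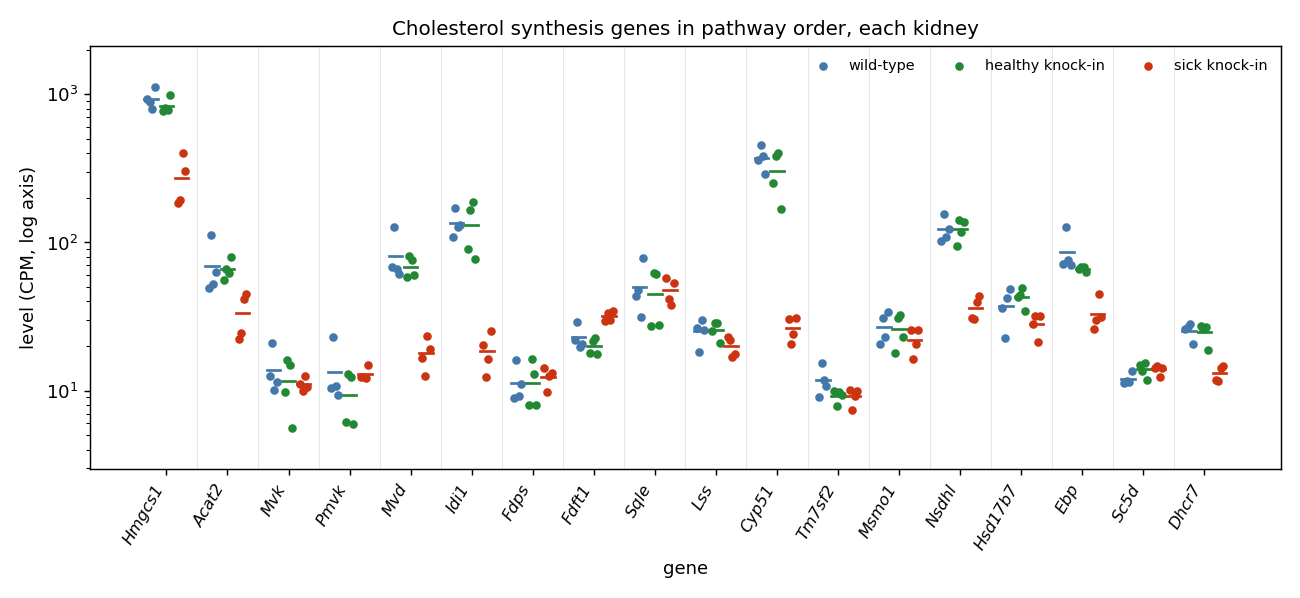
Level of the 18 synthesis genes in each of the 12 kidneys (CPM, log axis), in the order of the pathway from left to right, with 1 point per mouse and a bar at the mean of the 4 mice of a group. The sick mice lie below both other groups for Hmgcs1, Acat2, Mvd, Idi1, Cyp51, Nsdhl, Ebp and Dhcr7 (8 genes) and above them for Fdft1. With library totals alone the log2 fold changes of these 8 stay below 0. Acat2 and Dhcr7 are then not called against either group, and Ebp is not called against healthy mice.

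Among the enzymes that lead to the isoprenoid diphosphates, Hmgcs1, which makes HMG-CoA, was the most abundant. It lies on chromosome 13 (GRCm38 chr13:119690379-119708260, plus strand). It read 934, 888, 794 and 1122 CPM in the 4 wild-type mice, 769, 810.3, 785 and 989 CPM in healthy and 186, 192, 403 and 305 CPM in sick knock-in mice. The highest sick mouse was below the lowest of the other 8, and the fold change was 3.44-fold lower than wild-type (log2 -1.78 ± 0.24 SE, adjusted p = 7.39e-05). Acat2, the thiolase that joins acetyl-CoA units at the entry of the pathway, read 49.1, 112, 52.3 and 63 CPM in wild-type, 55.8, 65.9, 62.7 and 79.3 CPM in healthy and 22.3, 24.6, 41.4 and 45 CPM in sick mice. It was 2.08-fold lower than in wild-type (log2 -1.06 ± 0.29, adjusted p = 0.00814), and the second wild-type mouse was high (log2 -0.73 without it). Of the stretches of 50 bases in Acat2 transcripts, 39.1% also occur in its neighbour Acat3, which showed no such change (log2 0.20 ± 0.29, adjusted p = 0.598), so the level of Acat2 is uncertain by what the counting split between them.

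Mvd (GRCm38 chr8:122433601-122443422, minus strand) decarboxylates mevalonate diphosphate to isopentenyl diphosphate. Its level was 68, 128, 66.4 and 61.4 CPM in wild-type, 58.2, 80.6, 76.3 and 60.2 CPM in healthy and 16.6, 12.6, 23.2 and 19.1 CPM in sick mice, 4.54-fold lower than wild-type (log2 -2.18 ± 0.26, adjusted p = 2.51e-05). The sick mice were close to each other and far below both other groups. Idi1 (GRCm38 chr13:8885501-8892451, plus strand) interconverts the isopentenyl and dimethylallyl diphosphates that all isoprenoids are built from. It fell from 109, 170, 128 and 132 CPM in wild-type and 90.5, 166, 189 and 77.4 CPM in healthy mice to 20.3, 12.4, 16.3 and 25.1 CPM in sick mice, 7.27-fold against wild-type (log2 -2.86 ± 0.31, adjusted p = 1.56e-05) and 7.07-fold against healthy mice (log2 -2.82 ± 0.31, adjusted p = 2.25e-05). Of its stretches of 50 bases 25.3% are shared with other annotated transcripts, mostly Gm13502. The 2 kinases that lie between Hmgcs1 and Mvd in the pathway were not called: Mvk read 10.1 to 20.9 CPM in wild-type and 9.99 to 12.6 CPM in sick mice, and Pmvk 9.39 to 23.1 and 12.1 to 15 CPM. Their log2 fold changes were -0.32 ± 0.31 and -0.05 ± 0.32, so a change of the size seen in Mvd lies far outside these errors, while a small one does not.

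At the branch toward sterols, Fdps, which makes farnesyl diphosphate, was not called (log2 0.13 ± 0.27, adjusted p = 0.719), with levels of 8.9 to 16.2 CPM in wild-type and 9.76 to 14.3 CPM in sick mice. With library totals alone Fdps was called higher against wild-type (log2 0.72, adjusted p = 0.0417). Of its stretches of 50 bases 26.2% are shared with other annotated transcripts, mostly Gm43738, so its level is uncertain by how the counting split them. Fdft1, squalene synthase (GRCm38 chr14:63145150-63179578, minus strand), was the single synthesis gene that rose with TMM scaling. Its levels were 21.9, 29.2, 19.8 and 20.6 CPM in wild-type, 17.9, 21.5, 22.6 and 17.8 CPM in healthy and 29.6, 33.2, 30 and 34.3 CPM in sick mice, a difference of 1.39-fold from wild-type (log2 0.47 ± 0.15, adjusted p = 0.0169) and 1.59-fold from healthy mice (log2 0.67 ± 0.15, adjusted p = 0.00248). The sick and wild-type ranges come within less than 1 CPM of each other, and leaving out wild-type mouse 3 ended the call against wild-type (adjusted p = 0.0547). Exons of Fdft1 overlap those of Ctsb on the other strand over 774 bases, 18.3% of the exon length. Ctsb, a lysosomal protease gene, read 658 to 890.4 CPM in wild-type and 742 to 864 CPM in sick mice (log2 0.15 ± 0.16, adjusted p = 0.466), and the sources used here do not say whether the counting used strand. Sqle, the epoxidase that follows, was not called (log2 -0.08 ± 0.32): it read 43.8, 47.7, 31.5 and 78 CPM in wild-type and 57.7, 41.8, 37.8 and 52.9 CPM in sick mice. Neither was Lss, lanosterol synthase (log2 -0.33 ± 0.17, adjusted p = 0.131), except without wild-type mouse 2, when its adjusted p was 0.0203.

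Cyp51, the lanosterol demethylase (GRCm38 chr5:4081145-4104746, minus strand), fell more than any other of the 31. It read 359.9, 457, 385 and 292 CPM in wild-type, 252, 386, 399 and 169 CPM in healthy and 30.6, 20.7, 24.2 and 30.8 CPM in sick mice. It was 14.1-fold lower than in wild-type (log2 -3.81 ± 0.28, adjusted p = 1.83e-06) and 11.3-fold lower than in healthy mice (log2 -3.50 ± 0.28, adjusted p = 3.32e-06). Even the lowest healthy mouse, mouse 4 at 169 CPM, was several times above the highest sick mouse. Nsdhl (GRCm38 chrX:72918557-72958514, plus strand) encodes a dehydrogenase that acts in a later demethylation of the sterol. It went from 103, 155, 109 and 123 CPM in wild-type and 94.6, 142, 118 and 137 CPM in healthy to 30.9, 30.6, 39.5 and 43.5 CPM in sick mice. That is 3.40-fold lower than wild-type (log2 -1.77 ± 0.18, adjusted p = 1.12e-05). Its partners in the same demethylation changed less: Msmo1, the methyl sterol oxidase, was not called (log2 -0.29 ± 0.23, adjusted p = 0.312), and Hsd17b7, the ketoreductase, was called against healthy mice only (log2 -0.59 ± 0.21, adjusted p = 0.0378) and not against wild-type (log2 -0.39 ± 0.21, adjusted p = 0.144). The call of Hsd17b7 against healthy mice was lost without healthy mouse 1, 2 or 3 or sick mouse 1 or 3 (adjusted p of 0.0667, 0.0755, 0.0912, 0.0736 and 0.0916). Against wild-type it was made only without wild-type mouse 2 (adjusted p = 0.0120).

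Ebp, the sterol isomerase (GRCm38 chrX:8185329-8193512, minus strand), read 72.1, 128, 76.7 and 70.1 CPM in wild-type, 66.3, 68.2, 68.2 and 63.2 CPM in healthy and 26.2, 29.8, 44.9 and 31.4 CPM in sick mice. It was 2.63-fold lower than in wild-type (log2 -1.39 ± 0.21, adjusted p = 0.000154) and 2.01-fold lower than in healthy mice (log2 -1.01 ± 0.21, adjusted p = 0.00168). Dhcr7, the reductase that ends one branch of the pathway in cholesterol (GRCm38 chr7:143823145-143848410, plus strand), read 26.1, 26.7, 28.2 and 20.6 CPM in wild-type, 27.1, 26.2, 26.7 and 18.9 CPM in healthy and 11.8, 11.7, 14.2 and 14.7 CPM in sick mice, 1.94-fold lower than wild-type (log2 -0.95 ± 0.16, adjusted p = 0.000303). The 4 sick mice lay within 3 CPM of each other. Tm7sf2, a sterol reductase, and Sc5d, the lathosterol desaturase, were not called against either group. Their log2 fold changes against wild-type were -0.36 ± 0.18 and 0.21 ± 0.14. With library totals alone Sc5d was called higher against wild-type (log2 0.81, adjusted p = 0.000678). Under that scaling Tm7sf2 and Sc5d were both called higher against healthy mice (log2 0.58 each).

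The promoters of these genes are shown because many of them moved together. RefSeq promoter windows on GRCm38.p6 were matched for 25 of the 31 genes, and Fdps, Fdft1, Sqle, Stard4, Npc1 and Abcg1 had none. The windows below hold the 160 bases before the annotated start, 5′ to 3′ on the gene's strand, with capitals marking the CCAAT box (CCAAT, or ATTGG on the other strand) and, in Hmgcs1, a match to TCACNCCAC, a form of the sterol regulatory element that SREBP binds. Hmgcs1, Mvd and Nsdhl fell in sick kidneys, Mvk and Sc5d were not called, and Abca1 rose.
Hmgcs1, chr13:119690191-119690350, plus strand: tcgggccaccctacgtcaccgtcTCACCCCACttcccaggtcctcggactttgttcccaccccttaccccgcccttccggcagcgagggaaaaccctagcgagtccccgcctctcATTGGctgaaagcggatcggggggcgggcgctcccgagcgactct
Mvd, chr8:122443423-122443582, minus strand: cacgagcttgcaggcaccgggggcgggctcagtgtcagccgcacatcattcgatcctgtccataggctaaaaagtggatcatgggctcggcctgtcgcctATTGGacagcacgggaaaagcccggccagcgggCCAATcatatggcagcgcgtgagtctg
Nsdhl, chrX:72918361-72918520, plus strand: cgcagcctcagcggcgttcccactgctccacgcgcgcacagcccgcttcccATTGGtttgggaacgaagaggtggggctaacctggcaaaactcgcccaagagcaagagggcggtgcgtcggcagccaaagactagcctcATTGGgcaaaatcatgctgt
Mvk, chr5:114444109-114444268, plus strand: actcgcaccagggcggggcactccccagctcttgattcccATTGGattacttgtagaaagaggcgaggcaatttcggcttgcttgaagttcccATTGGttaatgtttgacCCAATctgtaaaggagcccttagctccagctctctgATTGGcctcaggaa
Sc5d, chr9:42264301-42264460, minus strand: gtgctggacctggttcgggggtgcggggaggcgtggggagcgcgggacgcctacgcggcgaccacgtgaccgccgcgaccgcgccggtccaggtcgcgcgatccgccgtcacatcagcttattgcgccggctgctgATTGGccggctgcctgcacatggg
Abca1, chr4:53159896-53160055, minus strand: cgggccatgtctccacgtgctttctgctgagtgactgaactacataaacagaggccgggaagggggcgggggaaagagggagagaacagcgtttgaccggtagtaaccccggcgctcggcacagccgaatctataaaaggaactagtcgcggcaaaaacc
For Cyp51 and Idi1, whose windows meet annotated exons, only the boxes with their flanks are given, 29 bases each.
Cyp51, chr5:4104710-4104738, minus strand: cgctgtccgccaCCAATctggtcctgaga
Idi1, chr13:8885549-8885577, plus strand: tgcctccagctgATTGGcgagcccgggca
Idi1, chr13:8885577-8885605, plus strand: atggtccaaggtgccATTGGctggcgacc

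Over 250 bases before the start, on either strand, a CCAAT box was present in 14 of 18 promoter windows of synthesis genes (77.8%), from 14 of 15 genes, against 33.8% of all 32851 windows in the RefSeq table. At least 2 boxes were present in 9 of 18 windows (50%) against 10.1% of all. Acat2 was the synthesis gene without a box. GGGCGG, the GC box, was found in 83.3% of synthesis windows and 32.7% of all, and TCACNCCAC in Hmgcs1 alone (5.56% against 1.05%). Genes outside synthesis had a CCAAT box in 7 of 16 windows (43.8%), from 6 of 10 genes, and a GC box in 9 of 16 (56.2%), from 7 of 10 genes. These are matches of letters and not binding sites.

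Most of the synthesis genes that fell were the abundant ones. Per kilobase of exon, the wild-type mean was 204 CPM for Hmgcs1, 84.7 for Cyp51, 43.5 for Mvd, 43.1 for Nsdhl, 38.5 for Idi1, 37.6 for Ebp and 27.2 for Acat2, and each of these 7 fell. The other 11 synthesis genes lay at 2.33 (Lss) to 9.05 (Sqle) CPM per kilobase, and of them Dhcr7 fell, at 4.37, and Fdft1 rose, at 5.42. No synthesis gene had a wild-type level between 9.05 and 27.2. Exon length counts each base in any annotated exon of a gene, so the width of this gap depends on the annotation. In CPM not divided by length, Acat2 at 69.1 and Sqle at 50.2 lay closer together, and the same 7 genes were the highest. In sick mice the spread narrowed: Cyp51 stood at 6.02 CPM per kilobase and Idi1 at 5.28, below Sqle at 8.58 and Fdft1 at 7.52. Hmgcs1 held 45.5% of the summed CPM of the 18 genes in wild-type, 45.7% in healthy and 41.2% in sick mice, while the share of Cyp51 went from 18.2% and 16.4% to 4.03% and that of Sqle from 2.45% and 2.44% to 7.22%. The wild-type mean enters both the level and the fold change against wild-type. Wild-type mouse 2 was the highest of its group for Acat2, Mvd, Idi1, Cyp51, Nsdhl and Ebp. Against healthy mice, where the wild-type mean enters the level alone, the 7 abundant genes also fell. This pattern was seen after the values were known and is given without a test.

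**Figure D2:**
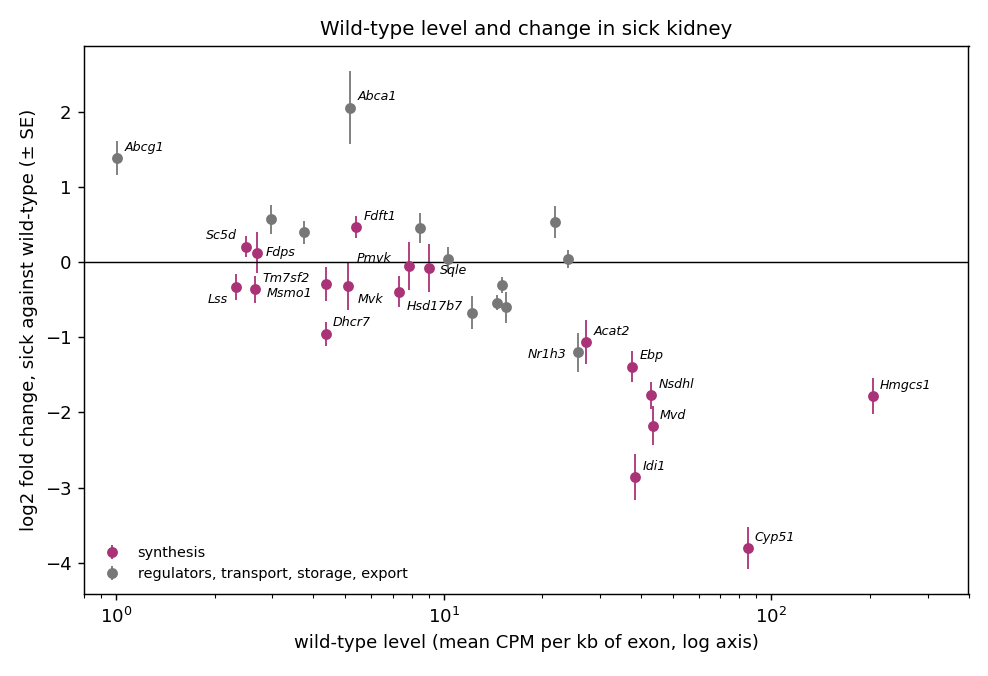
Wild-type level (mean CPM per kilobase of exon, log axis) of the 31 genes against their log2 fold change in sick against wild-type mice (bars: ± SE), with synthesis genes in purple. The 7 synthesis genes above 27 CPM per kilobase all lie below 0, and the 11 below 10 lie between -0.95 and 0.47. Exon length counts each base in any annotated exon of a gene. The wild-type mean enters both axes. With library totals alone the points move up by about 0.6 together.

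Of the 5 genes of SREBP control, 3 fell against wild-type mice and 0 rose, where 25% of all genes fell and 25.9% rose, but with library totals alone none of these 3 was called lower (Insig1 -0.01, Scap 0.05, and Insig2 0.29 with an adjusted p of 0.0325). Their place below the bulk of the genes is therefore what was measured. Scap, the escort that carries SREBP precursors to the Golgi (GRCm38 chr9:110333288-110384950, plus strand), varied little within groups. It read 114, 116, 106 and 102 CPM in wild-type, 109, 115, 118 and 106 CPM in healthy and 71.1, 75.4, 77.7 and 75.7 CPM in sick mice, 1.46-fold lower than wild-type (log2 -0.54 ± 0.10, adjusted p = 0.000475) and 1.5-fold lower than healthy mice (log2 -0.58 ± 0.10, adjusted p = 0.000352), where library totals alone gave 0.00. Insig1, which retains SCAP and is itself an SREBP target, read 49.8, 45.3, 57.3 and 39.7 CPM in wild-type and 37.6, 31.4, 31.2 and 26.4 CPM in sick mice (log2 -0.60 ± 0.21, adjusted p = 0.0305). The groups did not overlap, but the call was lost without wild-type mouse 1 or 3 or sick mouse 2, 3 or 4 (adjusted p of 0.0588, 0.0811, 0.0615, 0.0527 and 0.0847). Against healthy mice (45.6, 57.6, 59.3 and 28.5 CPM) it was also called (log2 -0.59 ± 0.21, adjusted p = 0.0348), and lost without healthy mouse 1, 2 or 3 or sick mouse 2, 3 or 4 (adjusted p of 0.0532 to 0.101). Healthy mouse 4 lay within the sick range.

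Insig2, the second retention protein, fell least, 1.23-fold against wild-type (log2 -0.30 ± 0.11, adjusted p = 0.0380), from 54.7, 47.5, 51.7 and 55.3 CPM to 40.1, 45.4, 48 and 36.8 CPM. Its groups overlapped, and the call was lost without wild-type mouse 1, 3 or 4 or sick mouse 1 or 4 (adjusted p of 0.0849, 0.0586, 0.0781, 0.0985 and 0.118). Against healthy mice it was not called (log2 -0.26 ± 0.11, adjusted p = 0.0683), though it was called lower without sick mouse 3 (adjusted p = 0.0329) and by DESeq2, and called higher with library totals alone (log2 0.32). With TMM scaling and all 12 libraries the factors themselves were not called. Srebf2, which encodes the SREBP most tied to cholesterol synthesis, read 83.7, 51.6, 80 and 81.6 CPM in wild-type, 82.7, 96.7, 95.4 and 69.6 CPM in healthy and 89.6, 70, 63.7 and 81.7 CPM in sick mice (log2 0.04 ± 0.17, adjusted p = 0.869). With library totals alone Srebf2 was called higher against wild-type (log2 0.64, adjusted p = 0.0139) and not against healthy mice (log2 0.41, adjusted p = 0.0905). Srebf1, which also drives fatty acid synthesis, read 49.2, 35.1, 46.8 and 59.4 CPM in wild-type and 67.5, 68.8, 59 and 66 CPM in sick mice (log2 0.46 ± 0.20, adjusted p = 0.0797), and was called higher in 1 of the 8 fits that leave out a mouse, without wild-type mouse 4 (adjusted p = 0.0446), in the fit of the 8 libraries alone and with library totals alone. RNA levels do not show how much of either factor was cleaved.

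In transport and storage, 3 of 4 genes rose against wild-type mice and 1 fell, where 25.9% of all genes rose and 25% fell, each by less than 1.6-fold, with a median of 0.47. Npc1, the lysosomal membrane protein that releases cholesterol taken up from lipoproteins, read 35.2, 22.4, 44.1 and 33.2 CPM in wild-type and 58, 52.1, 38.1 and 51 CPM in sick mice (log2 0.57 ± 0.19, adjusted p = 0.0260). Npc2, its soluble partner that hands cholesterol over, read 91.2, 183, 83.2 and 119 CPM in wild-type and 162, 160.2, 195 and 176 CPM in sick mice (log2 0.54 ± 0.21, adjusted p = 0.0479). Both pairs of groups overlapped, because wild-type mouse 3 reached the sick range for Npc1 and wild-type mouse 2 for Npc2. Soat1, which esterifies cholesterol for storage, read 41.4, 29.5, 40.8 and 35.5 CPM in wild-type and 45.1, 55.3, 51 and 42.5 CPM in sick mice, with no overlap (log2 0.40 ± 0.15, adjusted p = 0.0403). Stard4, a carrier of sterol between membranes, was the one that fell, from 73.5, 45.2, 85.4 and 69.4 CPM to 54.8, 39.4, 36.6 and 41.1 CPM (log2 -0.67 ± 0.22, adjusted p = 0.0217), though with library totals alone it stood at -0.07. Its second wild-type mouse was inside the sick range.

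These 4 calls depend on single libraries. Npc1 was lost without wild-type mouse 4 or sick mouse 1, 2 or 4 (adjusted p of 0.0545, 0.0781, 0.0581 and 0.0532). Npc2 was kept only without wild-type mouse 2 (log2 0.81, adjusted p = 0.00062), and without any of the other 7 libraries its adjusted p was 0.0646 to 0.139. Soat1 was lost without wild-type mouse 2 or 4 or sick mouse 1, 2 or 3 (adjusted p of 0.0909, 0.0866, 0.0538, 0.119 and 0.0780), and Stard4 without wild-type mouse 3 or sick mouse 2, 3 or 4 (adjusted p of 0.0648, 0.0556, 0.0523 and 0.0507). The log2 fold changes kept their sign throughout. Against healthy mice Stard4 fell (log2 -0.75 ± 0.22, adjusted p = 0.0137) and kept the call without each mouse in turn, but not with library totals alone (log2 -0.16, adjusted p = 0.568). Npc1 (log2 0.50 ± 0.19, adjusted p = 0.0482) and Npc2 (log2 0.55 ± 0.21, adjusted p = 0.0477) were higher. Npc1 remained called only without sick mouse 3, with adjusted p of 0.0588 to 0.132 without each of the other 7, and Npc2 without none of the 8 (0.065 to 0.113). Soat1 was not called (log2 0.35 ± 0.15, adjusted p = 0.0707).

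**Figure D3:**
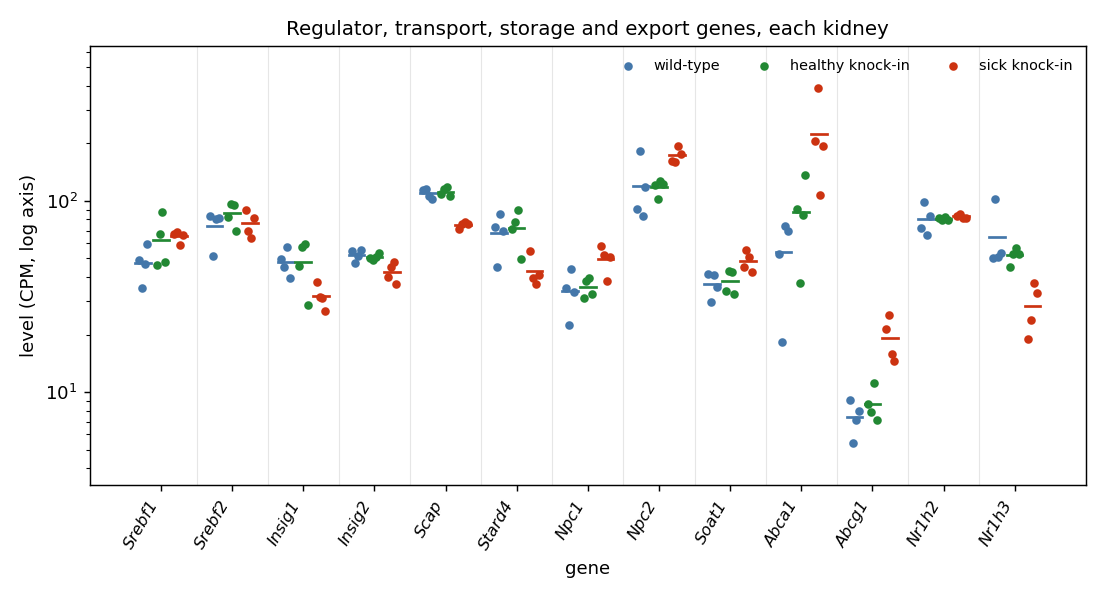
Level of the 13 genes of SREBP control, transport, storage and export in each kidney (CPM, log axis), with 1 point per mouse and a bar at the mean of the 4 mice of a group. Abcg1 is higher in all 4 sick mice than in the other 8, while Scap and Nr1h3 are lower; with library totals alone Scap stands at 0.05 and Nr1h3 at -0.62 against wild-type on the log2 scale.

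Both exporters rose. Abca1, which loads cholesterol onto apolipoprotein particles at the plasma membrane (GRCm38 chr4:53030787-53159895, minus strand), had the largest positive change of the 31. It read 52.5, 18.3, 74.3 and 69.9 CPM in wild-type, 90.5, 37.1, 84.1 and 137 CPM in healthy and 207, 388, 108 and 195 CPM in sick mice, 4.18-fold higher than wild-type (log2 2.06 ± 0.49, adjusted p = 0.00361). It also varied the most within groups, and the call held without each of the 8 libraries in turn (adjusted p of at most 0.0130). Against healthy mice the ranges overlapped, since healthy mouse 4 was above sick mouse 3. The difference there was 2.58-fold (log2 1.37 ± 0.48, adjusted p = 0.0327) and lost its call without healthy mouse 1, 2 or 3 or sick mouse 1 or 2 (adjusted p of 0.0653, 0.0822, 0.0687, 0.0511 and 0.119). Abcg1, which passes cholesterol to mature lipoproteins (GRCm38 chr17:31057675-31117988, plus strand), was scarce but steadier. It read 9.06, 5.42, 7.11 and 7.96 CPM in wild-type, 8.71, 7.82, 11.1 and 7.1 CPM in healthy and 21.3, 25.3, 15.9 and 14.5 CPM in sick mice, 2.62-fold higher than wild-type (log2 1.39 ± 0.23, adjusted p = 0.000284) and 2.22-fold higher than healthy mice (log2 1.15 ± 0.22, adjusted p = 0.00113), with no overlap in either. Across all genes 22.7% were higher without overlap against wild-type and 24% against healthy mice.

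With TMM scaling neither gene of the receptors that drive the exporters rose with them. Nr1h3, which encodes LXR alpha (GRCm38 chr2:91184061-91202834, minus strand), read 50.2, 103, 51.1 and 53.6 CPM in wild-type, 45, 52.9, 56.6 and 53.1 CPM in healthy and 19, 23.9, 37.3 and 32.8 CPM in sick mice. It was 2.29-fold lower than in wild-type (log2 -1.20 ± 0.26, adjusted p = 0.00190) and 1.84-fold lower than in healthy mice (log2 -0.88 ± 0.26, adjusted p = 0.0132), and without the high second wild-type mouse the first value was -0.89. With library totals alone the values were -0.62 against wild-type (adjusted p = 0.0414) and -0.31 against healthy mice, which was not called (adjusted p = 0.279). Nr1h2, which encodes LXR beta, was not called, at 72.1, 98.3, 66.5 and 83.6 CPM in wild-type, 81.2, 79.7, 82.8 and 79.9 CPM in healthy and 83.7, 85.1, 81.9 and 81.7 CPM in sick mice (log2 0.05 ± 0.12, adjusted p = 0.745). With library totals alone Nr1h2 was called higher against wild-type (log2 0.65, adjusted p = 0.000784) and against healthy mice (log2 0.62, adjusted p = 0.00104).

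**Figure D4:**
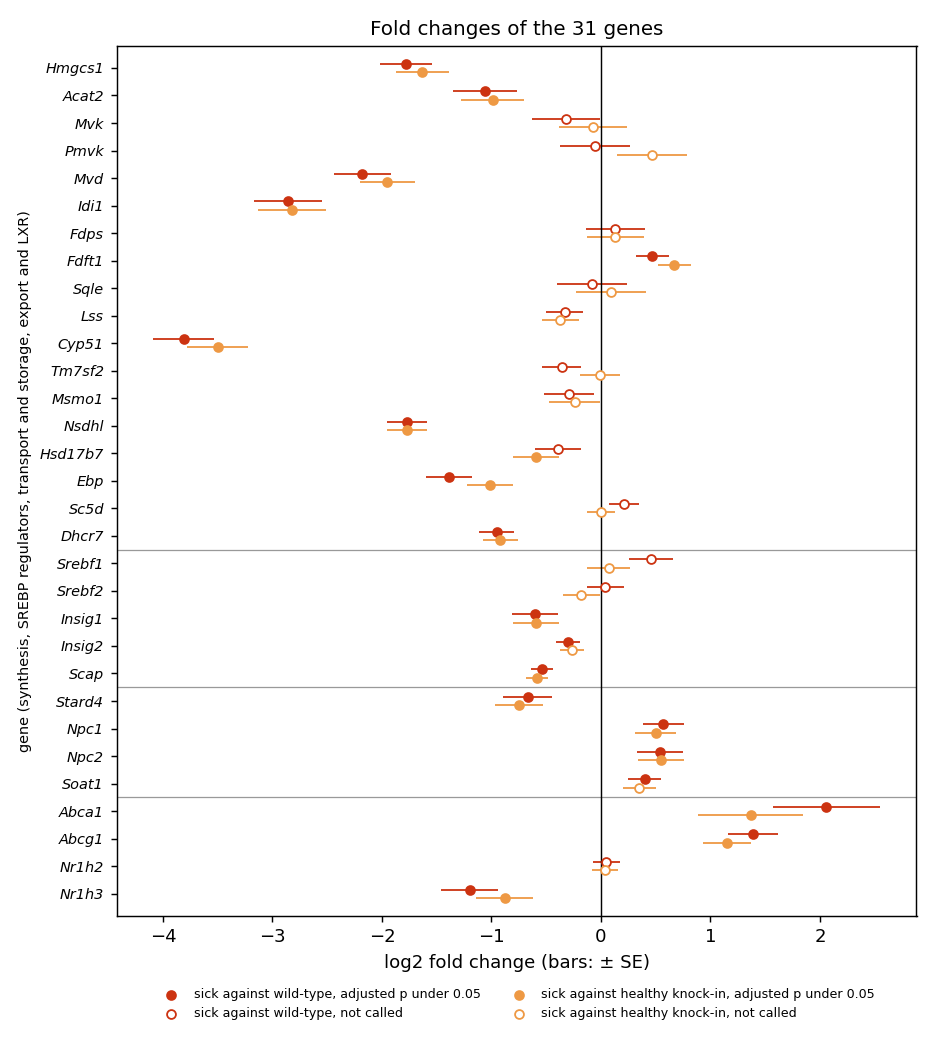
Log2 fold change (± SE) of the 31 genes in sick against wild-type and sick against healthy knock-in mice, with filled points where the adjusted p is under 0.05 and lines between the 4 roles. Cyp51 at -3.81 and Abca1 at 2.06 mark the ends against wild-type; with library totals alone these become -3.22 and 2.68, and Insig2 turns from -0.30 to 0.29.

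Taking the 13 genes outside synthesis as one set, 5 rose and 5 fell against wild-type mice (38.5% each, beside 25.9% and 25% of all genes), and 4 and 4 against healthy mice (30.8% each, beside 24.5% and 21.9%), with medians of 0.05 and 0.04. The balance of the sets can be read within a library, where scaling cancels. The mean log2 CPM of the 18 synthesis genes minus that of the other 13 was -0.40, 0.28, -0.40 and -0.28 in wild-type mice, -0.59, -0.19, -0.41 and -0.60 in healthy mice, and -1.35, -1.60, -1.16 and -1.08 in sick mice. All 4 sick mice were below the other 8. The means were -0.20 ± 0.32 (SD, n = 4), -0.45 ± 0.19 and -1.30 ± 0.23, and the wild-type mean was -0.36 without wild-type mouse 2. As the genes were chosen with results known, no test is given.

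Healthy knock-in mice did not differ detectably from wild-type in any of the 31 genes. With edgeR 0 of 31 were called higher or lower, 0 had an unadjusted p under 0.05, and DESeq2 called 0 as well. Of all genes tested 0.308% were higher and 0.00641% lower. The log2 fold changes ran from -0.52 ± 0.33 (Pmvk) to 0.70 ± 0.48 (Abca1), with a median of -0.01, and the lowest adjusted p was 0.912. For Cyp51 the value was -0.31 ± 0.25, for Idi1 -0.04 ± 0.29 and for Hmgcs1 -0.16 ± 0.24. Ebp was the one gene whose groups did not overlap, at 63.2 to 68.2 CPM in healthy and 70.1 to 128 CPM in wild-type mice (log2 -0.38 ± 0.21, adjusted p = 0.912), where 1.8% of all genes were lower without overlap.

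Within the healthy group many synthesis genes varied from mouse to mouse in a shared way, and so did several genes outside synthesis. Healthy mouse 4 was the lowest of the 4 for 10 of 18 genes (55.6%, against 30.2% of all genes) and healthy mouse 1 for 7 (38.9%, against 22.6%). Healthy mice 2 and 3 were each the highest for 7 (38.9%, against 24.4% and 23.3%), and mouse 3 was the lowest for 0. Of all 31 genes, mouse 3 was the highest for 16 and mouse 4 the lowest for 16. Outside synthesis, Insig1, Scap, Stard4 and Abcg1 were highest in mouse 3 and lowest in mouse 4, while Insig2 and Abca1 were highest in mouse 4. Cyp51 read 252 and 169 CPM in mice 1 and 4 and 386 and 399 CPM in mice 2 and 3, and Idi1 90.5 and 77.4 against 166 and 189 CPM. Hmgcs1, Acat2 and Nsdhl did not follow, as mouse 4 was the highest or near it. Tm7sf2 and Dhcr7 did not follow either, as mouse 1 was the highest. The summed CPM of 7 thick ascending limb markers moved alike, at 3189 and 2603 in mice 1 and 4 and 5887 and 6832 in mice 2 and 3, whereas that of 10 proximal tubule markers was 20394 and 19309 against 16314 and 16988. The part of these cell types in the variation was not tested.

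**Figure D5:**
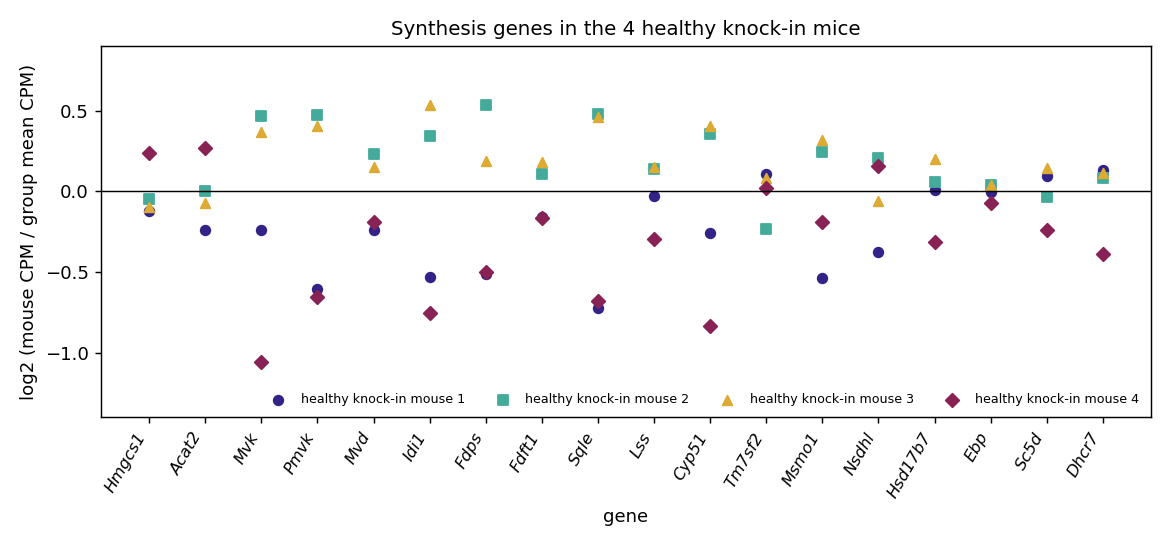
Log2 ratio of each healthy knock-in mouse to the mean of the 4 healthy mice for the 18 synthesis genes, in pathway order, with 1 symbol per mouse. Mice 2 and 3 lie above mice 1 and 4 for genes that include Mvd, Idi1, Fdps, Fdft1, Sqle, Cyp51 and Ebp. Mouse 4 is the highest for Hmgcs1 and Acat2.

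Other genes of sterol and lipid metabolism, in 7 lists, gave the surroundings of these results, and none of their members was called between healthy and wild-type mice. Their counts in sick against wild-type mice stand beside 25.9% of all genes higher and 25% lower, and several are near those shares. Of 10 genes of SREBP processing and sterol-dependent degradation, 6 fell and 0 rose in sick against wild-type mice. They included Erlin1 and Rnf145, of the degradation machinery (log2 -1.02 ± 0.18 and -0.68 ± 0.14). Of 11 genes on the isoprenoid branches that leave the pathway before squalene, 6 fell and 1 rose, with Pdss1 and Pdss2, which make the side chain of ubiquinone, at -1.84 ± 0.19 and -1.34 ± 0.15 and Nus1, of dolichol synthesis, at -1.47 ± 0.20. Of 14 genes of sterol transfer and ester turnover, 6 fell and 2 rose, with Scp2, a sterol carrier, at -1.66 ± 0.22, Nceh1, an ester hydrolase, at -1.14 ± 0.13, and Gramd1a, a sterol transporter, at 0.86 ± 0.12. The medians of the 3 lists were -0.57, -0.41 and -0.33, beside 0.02 for all genes.

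The remaining 4 lists were mixed. Of 13 fatty acid synthesis genes 3 fell and 3 rose, and Acss2, which makes acetyl-CoA from acetate, went from 422, 409, 409 and 364 CPM in wild-type to 54.7, 73.1, 113 and 64.8 CPM in sick mice (log2 -2.39 ± 0.21, adjusted p = 4.21e-06), beside Me1 at -2.27 ± 0.19 and Fads2 at -1.32 ± 0.16. Of 5 other genes listed as LXR targets and tested, 2 rose, Arl4c at 2.33 ± 0.19 and Pltp at 1.5 ± 0.27. Another 2 fell, among them Smpdl3a at -1.78 ± 0.16. The part of the receptors in these changes was not tested. Abcg5 and Abcg8 had too few counts to be tested. Of 7 lipoprotein receptors 3 rose and 3 fell: Lrp2, the endocytic receptor of the proximal tubule, went from 3002, 1629.5, 3577 and 4274 CPM to 358, 497, 426 and 551 CPM (log2 -2.77 ± 0.28), and the receptors Lrp1 and Msr1 stood at 2.44 ± 0.26 and 3.85 ± 0.43. Of 6 sterol hydroxylation and bile acid genes 3 rose, among them Hsd3b7 at 1.03 ± 0.15 and Cyp39a1 at 0.97 ± 0.26, and Cyp7b1, an oxysterol hydroxylase, fell from 181, 533, 223 and 192 CPM to 6.12, 3.65, 5.22 and 10.7 CPM (log2 -5.46 ± 0.70, adjusted p = 4.64e-05). In healthy mice Cyp7b1 read 64.6, 219, 408 and 63.1 CPM, low in mice 1 and 4 as Cyp51 was. Against healthy mice the counts of these 7 lists differed by at most 1 gene in either direction.

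The make-up of the sick kidneys differed as well, and in whole-kidney RNA fewer cells of a type and less RNA per cell cannot be told apart. All 10 proximal tubule markers fell against wild-type mice (median -2.44), with a summed level of 16303 to 19849 CPM in wild-type, 16314 to 20394 CPM in healthy and 2584 to 4918 CPM in sick mice. All 10 macrophage markers rose (median 3.09), from a sum of 132 to 252 CPM in wild-type and 199 to 264 CPM in healthy to 912 to 1793 CPM in sick mice, and all 8 markers of injured tubule rose, from 469.5 to 787 CPM to 9047 to 15166 CPM. Of 7 thick ascending limb markers 4 fell, and their sum was 5391 to 5896 CPM in wild-type and 524 to 4009.8 CPM in sick mice. The macrophage sums were 1793, 912, 978 and 1251 CPM in sick mice 1 to 4. Adipocyte markers summed to 61.7 to 128 CPM in wild-type and to 49, 408, 414 and 1672 CPM in sick mice 1 to 4. Sick mouse 4 was the highest of its group in 8 of 18 synthesis genes (44.4%, against 22% of all genes), and without it the same 8 genes fell. Adrenal cortex markers summed to at most 4.83 CPM in any mouse, with Cyp11b2 at 0 in all 12, and skeletal muscle markers to 268 to 412 CPM in healthy, 39.3 to 91 CPM in wild-type and 2.39 to 13.7 CPM in sick mice, although 5 of the 8 were called higher and 1 lower in sick against wild-type mice, the latter being Pvalb, at 36.7 to 88.4 CPM in wild-type mice. Liver markers varied within groups, at 11.4 to 770.5 CPM in wild-type, 168 to 527 CPM in healthy and 23.5 to 355 CPM in sick mice. The part of any of these in the changes of the 31 genes was not tested.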

How the data were processed

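Kidney RNA of 12 mice was read from the deposited table, which gives raw counts per Ensembl gene, per the file headers. Trim Galore 0.3.7, TopHat2 2.0.11, Cufflinks, DESeq2 1.12.4 and the build GRCm38 are named per the submitters' processing notes, and RNA was extracted with a miRvana kit and treated with DNase, per the labels' protocols. Of the counting program, the annotation release and the use of strand, the sources used here say nothing. Groups were taken from the labels, and nothing beyond the label of each mouse says how the replicates were raised.

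Counts were fitted with edgeR 4.0.16 in R 4.3.3. filterByExpr by group kept 15589 genes, libraries were scaled by TMM, and the 3 group means were estimated together from all 12 libraries in a quasi-likelihood fit with no covariate. F tests compared the groups in pairs, p-values were adjusted by Benjamini-Hochberg across the 15589 genes, and 0.05 was the threshold. The SE is the size of the log2 fold change over the square root of F. CPM uses the scaled library sizes, and within-library means use log2 CPM with a prior count of 2. Counts of 10605546 to 22633684 per library leave no member at 0. The comparisons share groups, so their values are set side by side without a test of overlap. The fitting was tested on simulated data in which few genes changed. Of planted changes of 1 on the log2 scale, 47 of 97 were called in the right direction in sick against wild-type mice. The other 2 comparisons gave 44 of 100 (sick against healthy) and 44 of 99 (healthy against wild-type). Of changes of 2 on that scale, 79 of 97, 87 of 99 and 87 of 100 were called. In the real data 4032 genes were called higher and 3901 lower against wild-type, and 3814 and 3418 against healthy mice. The simulated shares therefore do not give the recovery in sick mice. A gene that was not called may still have changed, by an amount that its SE limits. For members not called in sick against wild-type mice the SE was 0.12 (Nr1h2, log2 0.05) to 0.32 (Pmvk, log2 -0.05). In healthy against wild-type mice Abca1, at 0.70 ± 0.48, may have changed by 1 on the log2 scale.

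Exon lengths, coordinates and shared stretches of 50 bases came from a GENCODE annotation of GRCm38, and promoters from RefSeq on GRCm38.p6. All 31 members are named. Of each of the 7 other pathway lists, the 3 genes with the smallest adjusted p in sick against wild-type mice are named, apart from any not reported here. Markers of 8 cell types or tissues were summed per library. The members and lists were chosen with earlier results of these data known. Some genes of the pathway and of these lists are not reported here.

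Alternatives were DESeq2 size factors, library totals alone, no filter, a stricter filter of 1 CPM in 4 libraries, the replicate number as a block, the 8 libraries of a comparison alone, DESeq2 1.42.0, an adjusted p of 0.01 and leaving out each library in turn.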

Additional observations from a re-analysis of the deposited data

Results flagged for a closer look

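Of 93 groups of 4 mice examined, 1 for each gene and group, 8 held a mouse far from the other 3 relative to the range of the group, where about 1 in 20, or 4.7, is expected by chance. Wild-type mouse 2 accounted for 5 of them. It read 23.1 CPM for Pmvk with the others at 9.39 to 10.7 CPM, 128 CPM for Mvd with the others at 61.4 to 68 CPM, 128 CPM for Ebp with the others at 70.1 to 76.7 CPM, 103 CPM for Nr1h3 with the others at 50.2 to 53.6 CPM, and 51.6 CPM for Srebf2 with the others at 80 to 83.7 CPM. This library was thus high for 4 of the genes and low for 1. The other 3 were sick mouse 4 for Pmvk (15 CPM, the others 12.1 to 12.4 CPM), sick mouse 3 for Sc5d (12.4 CPM, the others 14.3 to 14.6 CPM) and healthy mouse 4 for Dhcr7 (18.9 CPM, the others 26.2 to 27.1 CPM). Mvd, Ebp and Nr1h3 fell in sick against wild-type mice with and without wild-type mouse 2.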

How the results depend on the processing

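The 8 synthesis genes that fell in sick against wild-type mice did so under each alternative except library totals alone, which left 6 of them. That scaling gave 8420 genes higher and 1605 lower in sick against wild-type mice (84% of calls higher, against 50.8% with TMM), with 3 synthesis genes and 9 others higher and 1 other lower. Against healthy mice it gave 8581 higher and 1425 lower (85.8% against 52.7%), 5 synthesis genes higher and 5 lower, and 8 others higher and 0 lower. The synthesis genes called higher were Fdps, Fdft1 and Sc5d against wild-type, and these with Pmvk and Tm7sf2 against healthy mice. The same scaling turned Insig2 to 0.29 and Scap to 0.05 against wild-type, and Insig2 to 0.32, Tm7sf2 to 0.58 and Sc5d to 0.58 against healthy mice. Genes outside synthesis called higher numbered 3 against wild-type and 2 against healthy mice with no filter and with the replicate block, and 2 against healthy mice with DESeq2 size factors. At an adjusted p of 0.01 they were 2 higher and 2 lower against wild-type, with 0 synthesis genes higher, and 1 and 1 against healthy mice. Leaving out each mouse gave 0 to 1 synthesis genes higher, 2 to 4 others higher and 2 to 5 others lower against wild-type, and 1 to 3 others higher against healthy mice. Between healthy and wild-type mice, genes lower numbered 2 with the 8 libraries alone, 1 to 2 leaving out a mouse, and 8 with DESeq2, which called 73 higher. The replicate numbers were not taken to pair the mice: over 12 pairs the correlations of their deviations were -0.26 to 0.24, 4 were over 0.1 and 5 mice correlated best with their own number. Scaling by library totals alone leaves out the TMM factors, which were 1.23 to 1.39 in sick mice and 0.804 to 0.933 in the others. The cause of the moves under the other alternatives was not tested. Small changes of genes near 10 CPM are limited by the spread between 4 mice.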
